A study of Mus musculus with 2 samples.

Results

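Ncl, Npm1, Odc1 and Cdk4 are growth genes that the Myc oncoprotein is known to activate, and their accessible chromatin was described in 1 lymphoma of the Eμ-myc mouse, called T6. The tumour was of strain C57/Bl6, was untreated, and had the genotype Arf-/- Trp53+/+. In this model an immunoglobulin heavy chain enhancer drives Myc in B cells. Arf normally keeps Mdm2 from destroying p53, so that its loss weakens the p53 response to Myc. The cells were labelled as B cells but came from lymph nodes pressed through a strainer with no later purification, so other lymph node cells may be present. The label was not checked against marker genes, since no gene annotation of the build of the sites was used here.

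Members were all DNaseI sites within 25 kb of 4 fixed gene positions in the mm9 mouse genome. They numbered 24 of the 53593 sites of the list. The listed positions were chromosome 1, 88241000 to 88256000, for Ncl; chromosome 11, 33050000 to 33065000, for Npm1; chromosome 12, 17551000 to 17559000, for Odc1; and chromosome 10, 126500000 to 126505000, for Cdk4. These positions are rounded, so distances from a gene end are approximate. DNaseI cuts DNA where nucleosomes are displaced, and sites are read here as such accessible stretches, though how they were called is not stated. The list gives the start and end of each site and no read count or score. Depth is therefore unknown, and width was the measure of size. There were 2 libraries in the series, 1 DNaseI library and 1 input library, and the input was not analysed here. Without a replicate no test between groups was possible, and the differences below are differences within 1 list.

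Myc pairs with Max and binds DNA at E-boxes, of which CACGTG is the preferred form, and the pair raises transcription of genes for ribosome production, metabolism and cell division. Ncl encodes nucleolin, a nucleolar protein needed for ribosomal RNA synthesis and processing. Npm1 encodes nucleophosmin, a nucleolar chaperone of ribosome assembly. Odc1 encodes ornithine decarboxylase, which makes putrescine and limits the rate of polyamine synthesis. Cdk4 encodes the kinase that joins D-type cyclins to phosphorylate the retinoblastoma protein and start the cell cycle. In B cells these genes are known to rise with Myc as resting cells enter growth.

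The promoter sequences are shown first, because the E-box is the element through which Myc is known to bind and the promoters differed in it. RefSeq promoter windows of the GRCm38.p6 build, 250 bases before to 50 bases after the gene's start, were matched for 3 of the 4 genes (Ncl, Odc1 and Cdk4). The bases before the first annotated start are printed 5′ to 3′ on the strand of the gene. At Odc1 that start lies before the start on which the window is set, so 185 bases are printed there. Capitals mark the E-box CACGTG and the GC box GGGCGG, which the factor Sp1 can bind, on either strand, so that a GC box on the other strand reads CCGCCC. The Cdk4 stretch is chr10:127063285-127063534 (plus strand), the Odc1 stretch chr12:17544623-17544807 (plus strand) and the Ncl stretch chr1:86359456-86359705 (minus strand). These are GRCm38.p6 positions and were not set against the mm9 sites.
Cdk4: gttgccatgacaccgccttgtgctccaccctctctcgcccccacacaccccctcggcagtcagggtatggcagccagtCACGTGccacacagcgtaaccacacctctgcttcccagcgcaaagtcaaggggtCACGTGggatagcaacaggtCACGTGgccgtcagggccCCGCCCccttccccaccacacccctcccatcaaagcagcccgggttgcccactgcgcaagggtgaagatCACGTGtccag
Odc1: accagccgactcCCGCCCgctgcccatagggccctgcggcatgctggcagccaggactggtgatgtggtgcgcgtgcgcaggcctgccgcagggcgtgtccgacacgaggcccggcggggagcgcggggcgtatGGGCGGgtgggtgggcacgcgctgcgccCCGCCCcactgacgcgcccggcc
Ncl: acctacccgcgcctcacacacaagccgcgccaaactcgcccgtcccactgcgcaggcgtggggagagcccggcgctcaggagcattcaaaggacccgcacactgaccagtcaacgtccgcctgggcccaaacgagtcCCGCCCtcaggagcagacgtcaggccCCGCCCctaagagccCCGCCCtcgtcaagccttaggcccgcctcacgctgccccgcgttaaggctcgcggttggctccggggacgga

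The Cdk4 window held 4 E-boxes, and the windows of Ncl and Odc1 held none. Of the 3 member genes with a window, 1 therefore had an E-box, against 8.91% of the 17491 protein-coding genes in the table. The 4 E-boxes of Cdk4 began 172, 118, 98 and 11 bases before the start, and none overlapped another or a GC box. At least 4 E-boxes were present in 8 of all 32851 promoter windows of this length, or 0.0244%, and in 5 of the 17491 protein-coding genes. In the human CDK4 promoter, E-boxes are known as binding sites of Myc. In Odc1 and Ncl, the E-boxes known for Myc binding lie in the first intron, which these windows do not reach. The missing match says only that the letters CACGTG are not in these windows.

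Over their whole length, the windows were alike in being rich in G and C and in GC boxes. Odc1 had 78.0% G and C and 42 CpG pairs, Ncl 69.3% and 33, and Cdk4 67.0% and 22, against medians of 52.7% and 7 over all windows and 56.3% and 13 over the 21262 windows of protein-coding genes. The value of Odc1 for G and C was reached or exceeded by few windows, with 98.2% of all windows at or below it. GC boxes numbered 4 in Odc1, 3 in Ncl and 3 in Cdk4, where a pair overlap by 1 base. At least 3 were found in 10.7% of all windows and in 14.7% of those of protein-coding genes. Before the start alone, Odc1 had 4, Ncl 3 and Cdk4 1, since the overlapping pair of Cdk4 lies after the start. At least 1 was found there in 42.6% of protein-coding windows, so Cdk4 was not rich in GC boxes before its start. Cdk4 had 13 CpG pairs there, against a median of 10 over protein-coding windows. The Cdk4 pair and the Odc1 box that begins 15 bases before the start lie outside the printed stretches. None of the 3 windows held the CCAAT box (CCAAT, in 37.4% of all windows), the TATA box TATAAA (13.6%) or the ETS site CCGGAAG (8.86%), each searched on both strands.

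**Figure D1:**
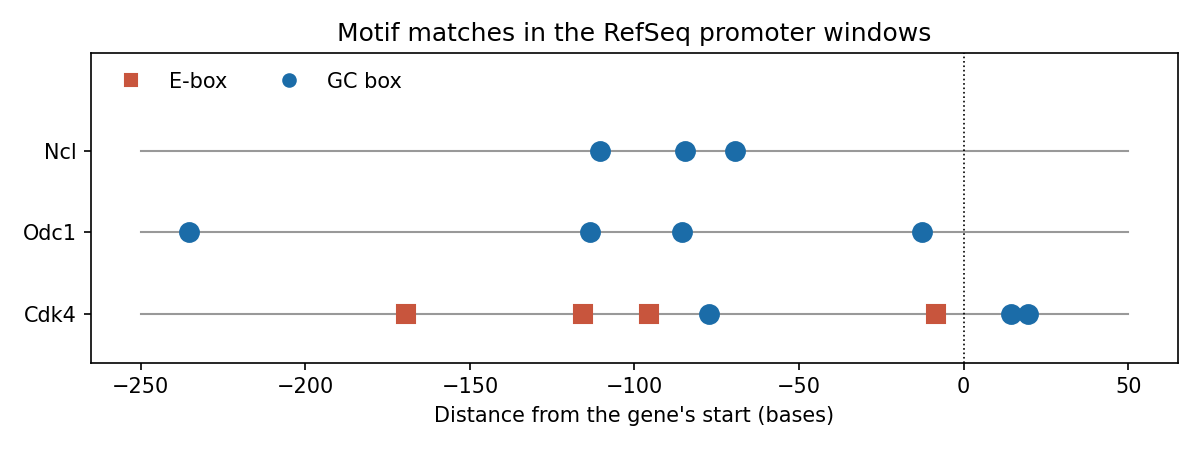
Positions of E-boxes (squares) and GC boxes (circles) in the RefSeq promoter windows of Cdk4, Odc1 and Ncl, in bases from the start on which each window is set (dotted line, negative values before it). The 4 E-boxes are all in Cdk4, while GC boxes are in each of the windows.

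Among other Myc target growth genes, an E-box in the promoter window was again a minority feature. A list of 36 such genes was used, with roles in ribosome production, translation, metabolism and the cell cycle, of which 30 had at least 1 window. The list was drawn up here without a named source set, so its shares describe these genes alone. An E-box was found in 7 of the 30 genes (23.3%), beside 8.91% of protein-coding genes. Leaving out the members, it was found in 6 of 27. They were Ldha, the lactate dehydrogenase subunit of glycolysis, with up to 2 in a window; Eif4e, the cap-binding translation factor, also with up to 2; and Eif4a1, Nme1, Hspd1 and Pes1 with 1. None of these 27 genes reached the 4 of Cdk4. Genes with several annotated starts had more than 1 chance to hold a match, and the accessibility of the list's other promoters was not analysed here.

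Each of the 4 genes had a wide accessible site within 2 kb of its listed 5′ end, which at Npm1 lay inside the listed span and did not touch that end. The promoter site was taken as the widest site within that distance. It measured 2639 bp at Ncl, 2100 bp at Npm1, 1759 bp at Odc1 and 1712 bp at Cdk4, where the median of all sites was 663 bp. All 4 were wider than 1500 bp, called wide here, against 11.4% of the list. This limit was chosen with earlier results of these data known, so the count is a description and no test. Over 1000 bp all 4 were counted, against 27.6% of the list, and over 2500 bp 1 was, against 1.61%. Widths of promoters in general were not analysed here, so the comparison is with all sites and does not set these genes apart from other active promoters.

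Ncl had the widest of the 4 promoter sites. Its site spanned 88254797 to 88257435 of chromosome 1 and covered both sides of the listed 5′ end, reaching about 1.44 kb before it and 1.20 kb into the gene. It ranked 650 of 53593 by width, so that 1.21% of all sites were at least as wide (95% exact binomial interval 1.12 to 1.31%). The share rose to 6.52% when sites at most 1 kb apart were joined, which left the promoter sites as they were and made other sites wider. On chromosome 1 it ranked 32 of 3118. The list was counted in full, so the intervals describe only a binomial count of this size. They do not cover the calling of sites, the width itself or a replicate, and neighbouring sites are not independent.

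The Npm1 promoter site, at 33061852 to 33063951 of chromosome 11, ranked 1893, and 3.54% of sites were at least as wide (3.38 to 3.70%), or 11.8% with close sites joined in the same way. It began 1.05 kb inside the rounded position of the 5′ end and did not reach it, so whether it covers the true start is unknown. The strand of Npm1 was taken from general knowledge of the gene. On chromosome 11 its site ranked 160 of 4470.

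The promoter sites of Odc1 and Cdk4 were close to each other in width, 47 bp apart. The Odc1 site, at 17550852 to 17552610 of chromosome 12, ranked 3683, with 6.90% of sites at least as wide (6.69 to 7.12%), and the Cdk4 site, at 126499976 to 126501687 of chromosome 10, ranked 4039, with 7.55% (7.33 to 7.78%). With close sites joined, the shares were 17.5% for Odc1 and 18.4% for Cdk4. Both lay almost wholly on the gene side of the listed 5′ end, with 0.148 kb of the Odc1 site and 0.024 kb of the Cdk4 site before it. Because the listed ends are rounded, how far either site reaches before the true start is not established. They ranked 134 of 2041 on chromosome 12 and 224 of 2837 on chromosome 10. By width the order was Ncl, Npm1, Odc1 and Cdk4. The uncertainty of a single width is unknown without a replicate, so the order of Odc1 and Cdk4 is not established.

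**Figure D2:**
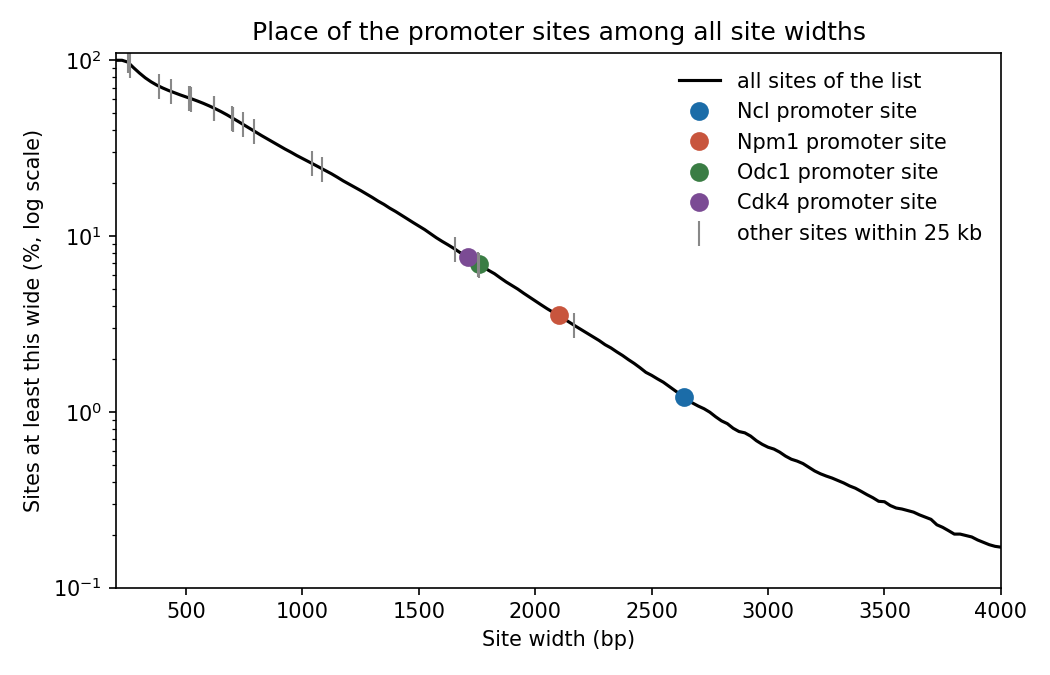
Share of all 53593 sites that are at least as wide as the width on the x axis (line, log scale), with the 4 promoter sites (circles) and the other sites within 25 kb of the genes (ticks). The promoter sites sit between 7.55% for Cdk4 and 1.21% for Ncl.

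Beyond the promoter site, the listed span of each gene held no further site that lay wholly inside it. From the promoter site towards the 3′ end, the next site came after 12.4 kb at Ncl, 12.1 kb at Npm1, 8.03 kb at Odc1 and 4.61 kb at Cdk4. Sites covered 17.4% of the listed span of Ncl, 14.0% of Npm1, 20.1% of Odc1 and 33.8% of Cdk4, the shortest of the 4 spans. The small nucleolar RNA genes Snora75 and Snord82 are placed within Ncl by the RefSeq table, and their positions were not set against the sites.

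At all 4 genes the next site downstream lay at or just past the listed 3′ end. At Ncl it overlapped that end (88240240 to 88242404) and was 2165 bp wide, the widest of the 20 sites that were not promoter sites. At Npm1 it began 0.263 kb past the end (33047982 to 33049737) and was 1756 bp wide. At Odc1 a site of 792 bp lay 1.64 kb past the end (17560639 to 17561430), and at Cdk4 one of 434 bp lay 1.30 kb past it (126506296 to 126506729). Ncl and Npm1 thus had wide sites near both listed ends, and Odc1 and Cdk4 near the 5′ end. Whether the sites near the 3′ ends belong to the member or to a neighbouring gene was not tested.

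**Figure D3:**
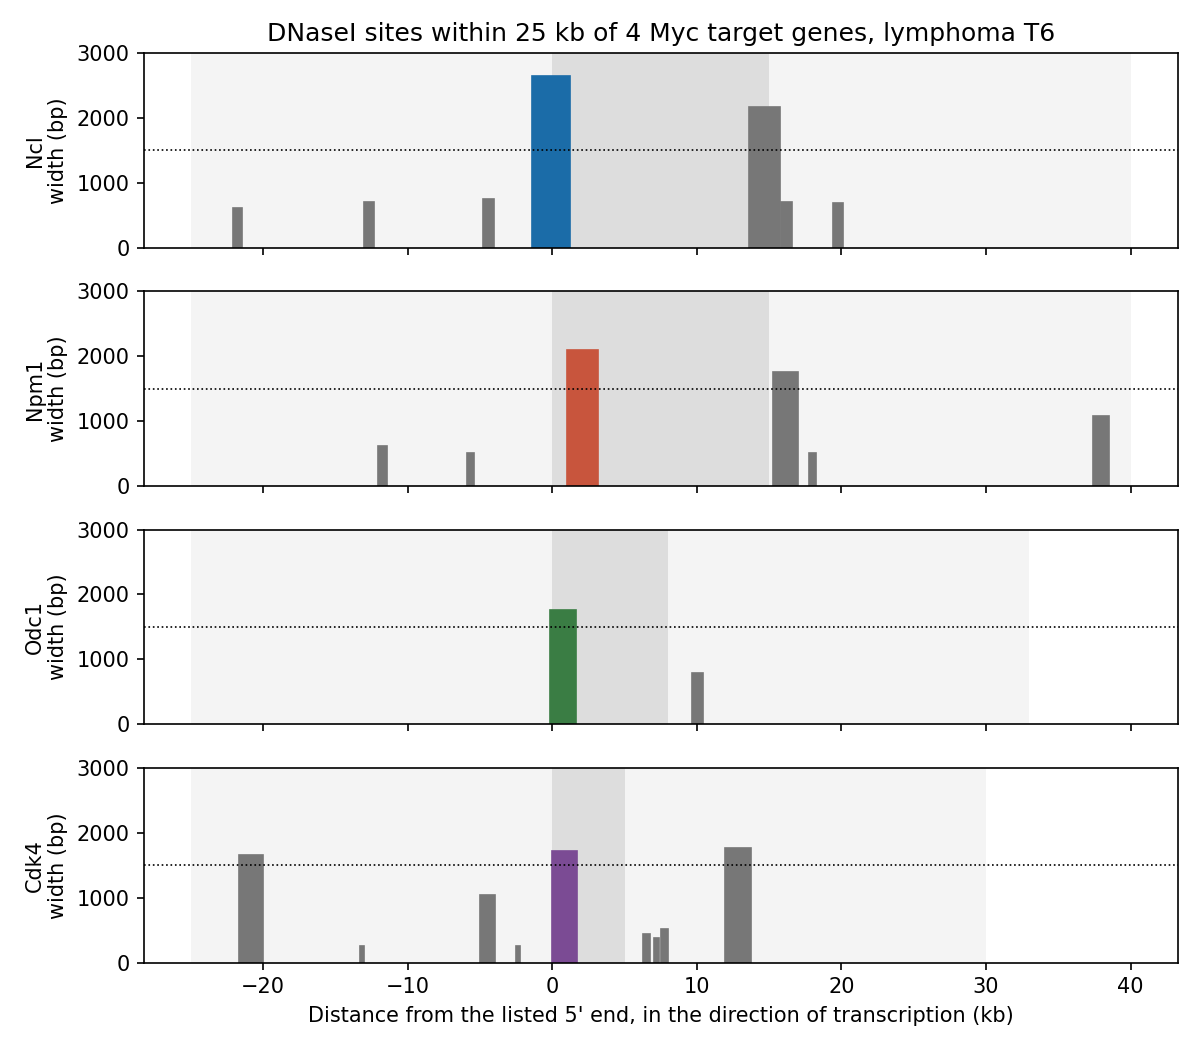
Each bar is a DNaseI site, drawn at its true position and length on the x axis (kb from the listed 5′ end, in the direction of transcription) with its width in bp as height; coloured bars are promoter sites, dark grey bands the listed gene spans, light grey bands the 25 kb on either side, and the dotted line 1500 bp. The promoter site is the tallest bar at Ncl, Npm1 and Odc1, and at Cdk4 a bar of 1760 bp to its right is slightly taller than the 1712 bp of the promoter.

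Around Ncl, 7 sites lay within 25 kb. Before the 5′ end these were sites of 744, 703 and 618 bp, at 4.04, 12.4 and 21.5 kb from the span, and past the 3′ end sites of 703 and 697 bp, at 0.848 and 4.44 kb. These 5 lay between 618 and 744 bp, near the median of the list, and so stood apart from the wide pair at the ends of the gene. The 2165-bp site and the 703-bp site past it were separated by 87 bp. In the RefSeq gene table, used for the order of genes alone, the next protein-coding gene past the 3′ end is B3gnt7, a glycosyltransferase gene, and before the 5′ end Nmur1, a neuropeptide receptor gene.

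Around Npm1, 6 sites lay within 25 kb. Before the 5′ end these were sites of 515 and 621 bp, at 5.39 and 11.5 kb. Past the 3′ end, the 1756-bp site was followed by sites of 512 bp at 2.76 kb and 1085 bp at 22.4 kb. The protein-coding neighbours are Fgf18, a growth factor gene, past the 3′ end and Tlx3, a homeobox gene, before the 5′ end. By the rounded positions, Ncl and Npm1 shared the same layout, with a wide promoter site, about 12 kb without a site, and a wide site at or just past the listed 3′ end.

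Odc1 had the fewest neighbours. Its promoter site and the 792-bp site past its 3′ end were the only sites within 25 kb, and they were also the only sites in 278 kb of chromosome 12 (17419197 to 17697283). The gap before the promoter site was 132 kb, and 8.26% of all sites had a gap at least as long on 1 side or both. The promoter site made up 69.0% of the covered bases in its window, against 31.9% at Ncl, 31.9% at Npm1 and 21.4% at Cdk4. The protein-coding neighbours in the gene table are Nol10, which encodes a nucleolar protein, before the 5′ end and Hpcal1, which encodes a calcium-binding protein, past the 3′ end.

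Cdk4 had 9 sites within 25 kb, 4 of them before the 5′ end and 4 past the 3′ end, against 7 at Ncl. This order turned at 50 kb, with 11 sites at Cdk4 and 12 at Ncl, and among sites above the median width, with 4 at Cdk4 and 6 at Ncl. Before the 5′ end were sites of 249, 1039, 261 and 1655 bp, at 2.25, 3.93, 13.0 and 20.0 kb. Past the 3′ end, 3 sites of 434, 383 and 520 bp lay within 1.74 kb of each other (126506296 to 126508037), with gaps of 294 and 111 bp. They were followed at 6.96 kb by a site of 1760 bp (126511965 to 126513724), which was 48 bp wider than the promoter site. Cdk4 thus had wide sites on either side at a distance, and its promoter was not the widest site of its window. The table places Tspan31, a tetraspanin gene, in overlap with Cdk4, Agap2, which encodes a GTPase-activating protein, past its 3′ end and Marchf9, which encodes a ubiquitin ligase, before its 5′ end. Sites here could therefore belong to several genes.

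Narrow sites, under 400 bp, were found at Cdk4 alone among the 4 genes. They numbered 3 of the 24 sites (12.5%, 95% interval 2.66 to 32.4%), against 30.5% of the list. Of the 24 sites 8 were wide (33.3%, 15.6 to 55.3%). Without the promoter sites, 4 of 20 were wide (20.0%, 5.73 to 43.7%), beside 11.4% of the whole list, and the median width of the 20 was 700 bp. The 4 other wide sites were the promoter sites, each picked as the widest near its listed 5′ end. Sites near the same gene are not replicates, so these intervals are no test against the list.

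The crowding of sites around the promoters differed between the 4 genes. Counted from the edges of the promoter site, there were 8 other sites within 25 kb at Cdk4, 6 at Ncl, 4 at Npm1 and 1 at Odc1. The median over all sites of the list was 4, with quartiles of 2 and 6, and over the 6101 wide sites it was also 4. At most as many neighbours as Cdk4 were found for 88.0% of all sites, as Ncl for 76.1%, as Npm1 for 58.5% and as Odc1 for 21.2%. The share of bases covered by sites in the same windows was 15.7% at Ncl, 15.5% at Cdk4, 10.6% at Npm1 and 4.93% at Odc1, where the median over all sites was 7.11% and over wide sites 10.1%. The 4 genes thus shared a promoter site wider than 1500 bp and did not share a setting. By number of neighbours, Cdk4 lay above the upper quartile of the list, Ncl at it and Odc1 below the lower quartile. Over wide sites the upper quartile was 7. With sites at most 1 kb apart joined, 7 sites lay within 25 kb of the listed span of Cdk4 and 6 of that of Ncl.

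**Figure D4:**
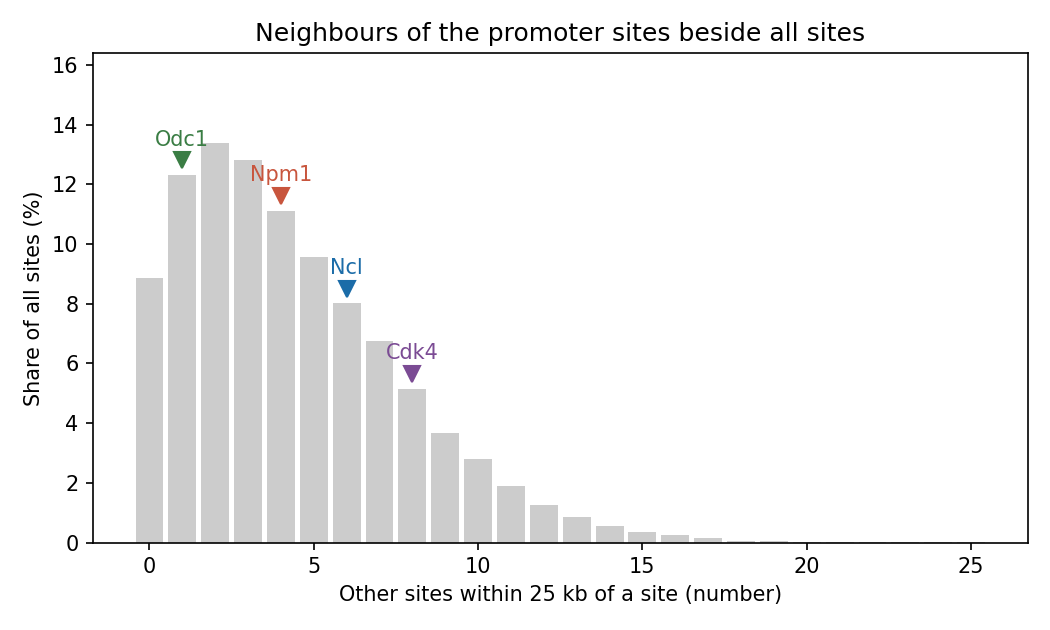
Bars give the share of all sites (%) by the number of other sites within 25 kb; triangles mark the promoter sites of Odc1 (1), Npm1 (4), Ncl (6) and Cdk4 (8). The promoter sites fall on both sides of the median of 4.

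The promoter sites were no closer to a neighbour than the median site of the list. The nearest site was 2.23 kb away at Cdk4, 2.61 kb at Ncl, 6.44 kb at Npm1 and 8.03 kb at Odc1, and 49.0%, 46.3%, 29.4% and 25.5% of all sites had a nearest gap at least as long. The median over all sites was 2.10 kb and over wide sites 2.82 kb. When sites at most 12.5 kb apart were joined, the Cdk4 promoter fell in a group of 10 sites over 46.6 kb, Ncl in one of 8 over 50.6 kb, Npm1 in one of 5 over 30.4 kb and Odc1 in one of 2 over 10.6 kb. The median site of the list was in a group of 4.

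The limit of 25 kb left 1 site of the joined group of Ncl and 1 of that of Cdk4 outside. The first sites beyond it were at 29.7 kb (713 bp) and 30.2 kb (609 bp) at Ncl, and at 31.7 kb (1162 bp) before the 5′ end and 47.3 kb (348 bp) past the 3′ end at Cdk4. At Npm1 they were at 36.2 kb (622 bp) and 51.7 kb (624 bp), and at Odc1 at 132 kb (301 bp) and 138 kb (312 bp). The farthest members inside the limit were the 1085-bp site at 22.4 kb from Npm1 and the 618-bp site at 21.5 kb from Ncl.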

How the data were processed

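Accessible sites were taken from the authors' deposited list for the DNaseI library of lymphoma T6, which has 3 columns (chromosome, start and end) and no header. Per the submitters' processing notes, BWA 0.6.2 and SAMtools were used with build mm9. How sites were called, at which threshold and whether against the input is not stated in the labels or the list, and width depends on this and on depth. Starts were converted to count from 1. A site was a member if any base lay within 25 kb of a listed position. Width ranks count all sites, with ties given the best rank. The members, gene lists, motifs and limits were chosen with earlier results of these data known. The named genes are the 4 members, with their promoter sites, the nearest sites on either side and the widest other site. Gene order, strands (except Npm1) and promoter windows came from RefSeq tables of GRCm38.p6, and no coordinates were converted. Intervals are exact (Clopper-Pearson) at 95%. Ranks and intervals were computed in Python 3.11.15 with pandas 2.3.3 and scipy 1.17.1, and figures were drawn with matplotlib 3.10.9. The counting of neighbours was tested on simulated data, and the motif search was tried on short made-up sequences.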

Additional observations from a re-analysis of the deposited data

How the results depend on the processing

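Other settings gave 36 values, of which 25 differed from the reported one by no more than its binomial interval (counts by no more than 1.5 times) and 11 moved further. That interval served as a yardstick alone and does not give the uncertainty of a width. A single width or count has no direction to reverse, but the order of Cdk4 and Ncl by number of sites did turn. With sites at most 1 kb apart joined, the promoter sites kept their widths but more of the list was as wide: the share at least as wide was 6.52% for Ncl, 11.8% for Npm1, 17.5% for Odc1 and 18.4% for Cdk4. Within the same chromosome the share was 1.03% for Ncl, 6.57% for Odc1 and 7.90% for Cdk4. At 50 kb on each side 12 sites lay near Ncl and 11 near Cdk4. Among sites above the median width, 6 lay near Ncl, 3 near Npm1 and 4 near Cdk4. Over 2500 bp, 1 of the 4 promoter sites remained wide (Ncl), against 1.61% of the list. No site lay within 1 kb of the rounded 5′ end of Npm1, so that alternative gave no value there. No paired analysis was possible because there was 1 library. Depth is unknown, so a weaker site could be missing from the list.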
